A study of Homo sapiens with 3 samples.

Results

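The cytosolic ribosomal protein genes encode the proteins of the ribosome of the cytoplasm. A gene was included when a probe set (a group of short probes read as 1 value) was paired with exactly 1 symbol and that symbol had the form RPL or RPS with a number, with or without the endings A, X or L, or was RPLP0, RPLP1, RPLP2 or RPSA. Pseudogene symbols were left out, and the rule itself uses no measured value. This gave 57 of 19775 named genes, read by 118 probe sets, with 1 to 5 probe sets a gene. Of the 57, 36 belong to the large subunit and 21 to the small subunit. RefSeq holds 82 genes whose symbol has this form; 15 of them were paired only with probe sets of several symbols, RPL5 among them, and 10, including RPLP0, RPSA and RPS27A, with no probe set in the annotation used here.

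The cells were MDA-MB-231, an established human breast cancer line with a mesenchymal-like form that is usually classed as lacking the oestrogen receptor alpha. All cells spent 4 h in medium with 10% charcoal-stripped serum, in which steroids are depleted, and then 3 h with the agent. The groups were a vehicle of 0.1% ethanol, 1 µM of the oestrogen estradiol, and 1 µM of ERα17p, a peptide derived from that receptor. Each was read on 1 Affymetrix HG-U133 Plus 2 array, so no difference below has a test or a replicate check, and each describes these arrays. Which solvent carried the peptide is not stated in the sources at hand.

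A ribosome joins a small subunit, which reads the mRNA, to a large subunit, which makes the peptide bonds. Its proteins are made in balanced amounts, and most of their mRNAs begin with a C followed by a run of pyrimidines, the 5′ terminal oligopyrimidine (TOP) sequence, through which MTOR and LARP1 control their translation. These mRNAs are among the most abundant of growing cells and are mostly stable. Control of ribosomal protein synthesis therefore often acts on translation, which an array of total RNA does not read.

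All values are on a log2 scale and were deposited centred: each probe set has its own reference, which the sources leave undescribed. A value of 0 is that reference, the expression level of a gene is unknown, and levels of different genes cannot be set against each other. A gene's value is the median of its probe sets, and with 2 probe sets that is their mean. The centred values of all 54675 probe sets had an SD of 0.494 for vehicle, 0.260 for estradiol and 0.241 for ERα17p. Labelling spikes, foreign RNAs added before labelling, were 2.03 higher in log2 on the estradiol array and 2.04 higher on the ERα17p array than on the vehicle array (medians of 27 probe sets), and hybridisation spikes, added later, were at -0.74 and -0.93 (18 probe sets). The part of these shifts in the results below was not tested. The centring also prevents a check of the line against its markers: 7 mesenchymal-like markers had median differences from vehicle of 0.30 and 0.52 for estradiol and ERα17p, 8 luminal markers of -0.02 and -0.05, and 4 of 5 blood markers measured of 0.07 and 0.02. In bulk RNA, fewer cells that express a gene and less RNA per cell cannot be told apart.

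Most ribosomal protein genes lay slightly lower on both treated arrays than on the vehicle array, and a few lay far lower. With estradiol, 43 of 57 were below vehicle, with a median log2 difference of -0.10, where the median of all named genes was 0.00 and 49.0% were below. With ERα17p, 36 of 57 were below vehicle, with a median of -0.08 against 0.00 for all genes, of which 49.2% were below. Counted as called at a difference of at least 1.5-fold, 9 members (15.8%) were lower and 0 higher with estradiol, while 8.25% of all genes were lower and 10.4% higher. With ERα17p 7 members (12.3%) were lower and 2 higher, against 8.53% and 9.27% of all genes. At 2-fold or more, 4 members were lower with estradiol and 3 with ERα17p, and 0 were higher with either agent; 2.14% and 2.44% of all genes were that much lower, and 3.82% and 3.21% that much higher. Both treatments were set against the same vehicle array, so the 7 members called lower under both share that value.

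The vehicle array held the highest of the 3 values for 36 members (63.2%) and the lowest for 14 (24.6%). Over all named genes those shares were 38.5% and 39.7%. The median centred value of the members was 0.05 for vehicle, -0.07 for estradiol and -0.0027 for ERα17p.

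**Figure D1:**
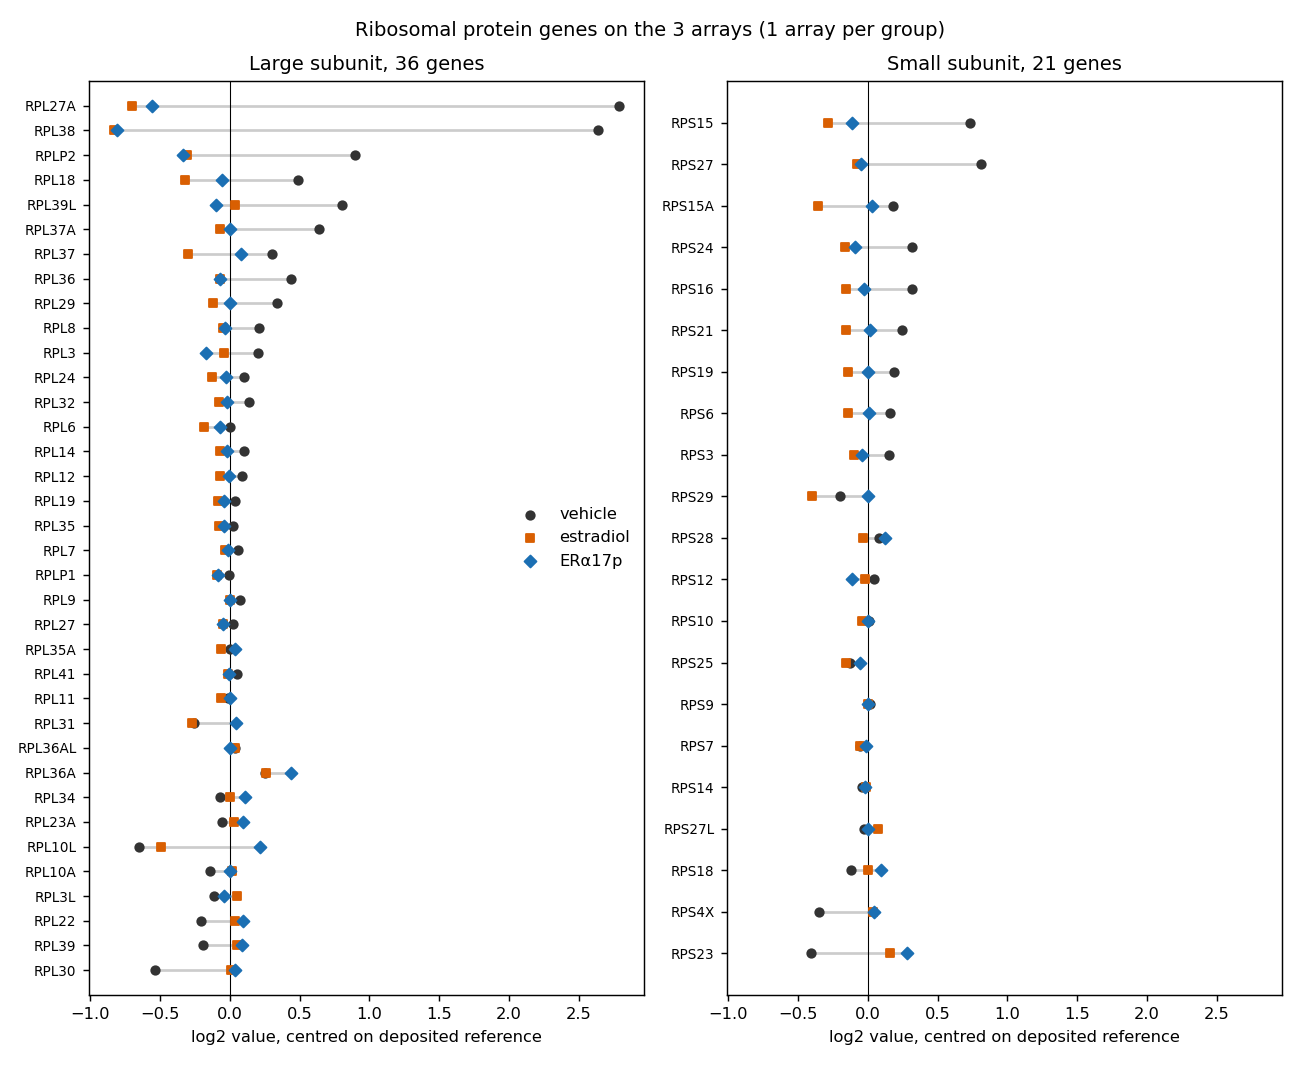
Centred log2 value (x axis) of each of the 57 ribosomal protein genes on the vehicle (circle), estradiol (square) and ERα17p (diamond) arrays, ordered by the difference of estradiol from vehicle, with 36 large subunit genes on the left and 21 small subunit genes on the right. For RPL27A and RPL38 the vehicle value is above 2.5 and both treated values are below -0.5; for most other genes the 3 values lie close together.

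RPL27A and RPL38, both proteins of the large subunit, had the lowest values relative to vehicle. RPL27A was at 2.79 with vehicle, -0.70 with estradiol and -0.55 with ERα17p. Its differences from vehicle were -3.49 (11.2-fold lower) and -3.34 (10.1-fold lower). This gene rests on 1 probe set. A further 2 probe sets carry its symbol beside that of a small nucleolar RNA and were not used for the gene; they differed from vehicle by -0.07 and 0.07 with estradiol and by 0.02 and 0.24 with ERα17p. Probe sets that carry this symbol thus gave very different values, and RPL27A has near-identical pseudogene copies that its probes may also read.

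RPL38, which in mice is needed for the translation of certain homeobox mRNAs, was at 2.64 on the vehicle array, -0.83 with estradiol and -0.81 with ERα17p. The differences were -3.47 (11.1-fold lower) and -3.45 (10.9-fold lower). Of its 3 probe sets 2 differed by -3.90 and -3.47 with estradiol and by -3.67 and -3.45 with ERα17p. The other one, whose listed accession is a RefSeq transcript, differed by 0.08 and 0.13, so the choice of probe set decides the direction for this gene.

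The stalk of the large subunit, built of RPLP0, RPLP1 and RPLP2, recruits the elongation factors that hydrolyse GTP. RPLP2 was at 0.90 on the vehicle array, -0.30 with estradiol and -0.34 with ERα17p, which is -1.20 (2.30-fold lower) and -1.24 (2.35-fold lower) relative to vehicle. Its partner RPLP1 was at -0.01, -0.09 and -0.08, with both differences at -0.08. Only RPLP2 of the pair was called. Its 2 probe sets differed from vehicle by -2.27 and -0.13 with estradiol and by -2.11 and -0.36 with ERα17p; another probe set, which also carries the symbol of a small nucleolar RNA, differed by -0.28 and -0.15.

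Other large subunit members called lower were RPL18, RPL37A, RPL37 and RPL39L. Given in the order vehicle, estradiol, ERα17p from here on, RPL18 was at 0.49, -0.32 and -0.05, a difference of -0.81 with estradiol and -0.54 with ERα17p, the latter short of 1.5-fold. Its 3 probe sets lay in 1 direction, between -1.10 and -0.81 with estradiol and between -0.96 and -0.48 with ERα17p. RPL37A, a protein with a zinc-binding fold, was at 0.64, -0.07 and 0.00, with differences of -0.71 and -0.64.
RPL37, another zinc-binding protein, was called only with estradiol, just past 1.5-fold. It was at 0.30, -0.30 and 0.08, which is -0.60 and -0.22 relative to vehicle, and the estradiol array was the low one of the 3. Its 4 probe sets ran from -1.17 to -0.13 with estradiol and from -0.53 to -0.03 with ERα17p.

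In the small subunit, RPS15 and RPS27 were called lower with both agents. RPS15 was at 0.73, -0.29 and -0.11, which is -1.02 (2.03-fold lower) with estradiol and -0.85 (1.80-fold lower) with ERα17p. RPS27, a zinc finger protein, was at 0.81, -0.07 and -0.05, with differences of -0.88 and -0.86. Each is the mean of 2 probe sets that disagree. For RPS15 they were at -1.85 and -0.18 with estradiol, and for RPS27 at -1.88 and 0.11.

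The members on the high side stood at smaller differences. RPS23, a protein of the decoding centre, was at -0.41, 0.16 and 0.28, a difference of 0.57 with estradiol and 0.69 (1.61-fold higher) with ERα17p. RPL30 was at -0.54, 0.01 and 0.04, with differences of 0.54 and 0.58, and RPS4X, the X-linked form of RPS4, at -0.35, 0.03 and 0.05, with differences of 0.38 and 0.40. In all 3 the vehicle array was the low one. RPS23 is the mean of a probe set at 1.09 with estradiol and 1.30 with ERα17p and another at 0.05 and 0.08. The testis gene RPL10L, a retrocopy of RPL10, was at -0.65, -0.49 and 0.21, so that only its ERα17p value stood apart, 0.86 above vehicle (1.82-fold higher). RPL10L rests on 1 probe set. After quantile normalisation of the arrays, and with the arrays scaled to equal SD, its difference of estradiol from vehicle turned from 0.16 to -0.17 and -0.19, and against the deposited zero its estradiol value is -0.49.

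The transcription start of most members carries the TOP run that the family is known for. The windows below, read from RefSeq promoters of GRCh38.p14, are those of members called against vehicle in either comparison that have an entry. Each holds 40 bases before the annotated start and the first 20 bases of the transcript, on the gene's strand, and capitals mark the pyrimidine run where a C at the start is followed by at least 4 more C or T.
RPL27A, chr11:8682752-8682811, plus strand: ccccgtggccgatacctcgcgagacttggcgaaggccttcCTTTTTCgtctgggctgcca
RPL38, chr17:74203638-74203697, plus strand: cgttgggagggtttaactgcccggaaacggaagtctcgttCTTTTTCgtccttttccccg
RPLP2, chr11:809927-809986, plus strand: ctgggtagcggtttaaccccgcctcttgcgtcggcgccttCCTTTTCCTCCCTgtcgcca
RPS15, chr19:1438356-1438415, plus strand: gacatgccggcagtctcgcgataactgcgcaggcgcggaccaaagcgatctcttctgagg
RPS27, chr1:153990722-153990781, plus strand: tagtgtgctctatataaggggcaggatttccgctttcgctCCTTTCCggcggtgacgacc
RPL18, chr19:48619159-48619218, minus strand: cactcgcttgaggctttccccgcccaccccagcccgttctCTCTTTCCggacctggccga
RPL37A, chr2:216498804-216498863, plus strand: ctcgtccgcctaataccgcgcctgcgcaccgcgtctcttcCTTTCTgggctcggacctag
RPL10L, chr14:46651762-46651821, minus strand: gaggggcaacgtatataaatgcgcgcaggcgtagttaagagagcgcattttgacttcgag
RPS23, chr5:82278335-82278394, minus strand: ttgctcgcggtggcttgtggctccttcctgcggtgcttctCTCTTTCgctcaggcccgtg

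The run is 13 bases long in RPLP2, 8 in RPL18, 7 in RPL27A, RPL38, RPS27 and RPS23, and 6 in RPL37A. RPS15 and RPL10L have no such run at the annotated start, though in RPS15 a run of pyrimidines follows a few bases after it. The promoter table matched 49 members, with 56 entries; RPL3L, RPL7, RPL8, RPL23A, RPL30, RPL37, RPL39L and RPS15A had none. A run at the start was present in 34 of 56 entries (60.7%), and in 4.07% of all 35116 entries. When the run could start anywhere within 10 bases of the annotated start, the shares were 83.9% and 33.5%. The 34 members with a run at the start had median differences from vehicle of -0.13 with estradiol and -0.11 with ERα17p. The 15 without it had medians of -0.08 and -0.03. Members of both kinds were called lower, 6 of 34 and 1 of 15 (RPS15) with estradiol, beside 8.25% of all genes.

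Other motifs were searched on both strands of the 300 bases of each promoter entry. CCGGAAG, a core read by ETS factors, was in 39.3% of the members' entries and 10.3% of all entries. AAGATGGCG, the core of YY1 sites, was in 5.36% and 1.75%, and TATAAA in 7.14% and 11.5%. The first pair of motifs can share the letters AAG. These are matches of letters only and were not set against the arrays.

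Probe sets of the same gene often disagreed. Of the 34 members with 2 or more probe sets, 15 had probe sets at least 1 log2 unit apart in the difference of estradiol from vehicle, and 13 in that of ERα17p. With estradiol, 17 of the 34 had every probe set below vehicle, 4 had every one above and 13 had both signs; with ERα17p the counts were 13, 5 and 16. Of all 10523 named genes with 2 or more probe sets, 27.5% had probe sets at least 1 log2 unit apart with estradiol and 24.4% with ERα17p, against 44.1% and 38.2% of these members. Every probe set lay below vehicle in 22% of those genes with estradiol and 21.2% with ERα17p, against 50% and 38.2% of the members. Every probe set lay above vehicle in 22.9% and 23.3% of those genes, against 11.8% and 14.7% of the members. For 14 members with estradiol (41.2%) and 11 with ERα17p (32.4%), 1 or more probe sets were at least 2-fold lower while another of the same gene was within 1.5-fold of vehicle; the shares over all such genes were 9.02% and 7.85%. In the other direction, with a probe set at least 2-fold higher, there was 1 member with each agent (2.94%), RPS23, where all such genes had 11.9% and 11.1%. These differences in share were not tested.

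The lowest probe set of all 118 with both agents belonged to RPS10. It was at 2.72 on the vehicle array, -1.26 with estradiol and -0.98 with ERα17p, a difference of -3.98 and -3.70, while the other 3 of this gene lay between -0.04 and -0.02 with estradiol and between 0.00 and 0.01 with ERα17p. RPL14 had a probe set at 3.08, -0.07 and 0.04 beside a pair at -0.20 and -0.11 with estradiol. One probe set of RPL37A was at 2.53, -0.94 and -0.69, a difference of -3.46 with estradiol, and its RefSeq transcript probe set was at -0.03. The gene medians of RPS10 (-0.05 with estradiol, -0.01 with ERα17p) and RPL14 (-0.17 and -0.12) do not show these probe sets. RPS27L and RPL35A each had 1 probe set at -1.80 and -1.57 with estradiol, with gene medians of 0.10 and -0.07.

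The 39 probe sets whose listed accession is a RefSeq transcript lay nearer to vehicle than the 79 with another accession or none. Their median difference was -0.05 with estradiol and -0.03 with ERα17p, and that of the others -0.24 and -0.14. With estradiol 1 of 39 was at least 2-fold lower, the probe set of RPL18 at -1.10, against 16 of 79 of the others; with ERα17p the counts were 0 and 13. Over all named probe sets, 3.09% of RefSeq transcript and 4.3% of other probe sets were at least 2-fold lower with estradiol, and 3.64% and 3.87% with ERα17p. Of 25 members with both kinds, the other kind lay lower in 19 with estradiol and 17 with ERα17p. This grouping of probe sets was made after the values were seen. Ribosomal protein genes have many near-identical pseudogenes, and which transcripts each probe set reads is not known.

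**Figure D2:**
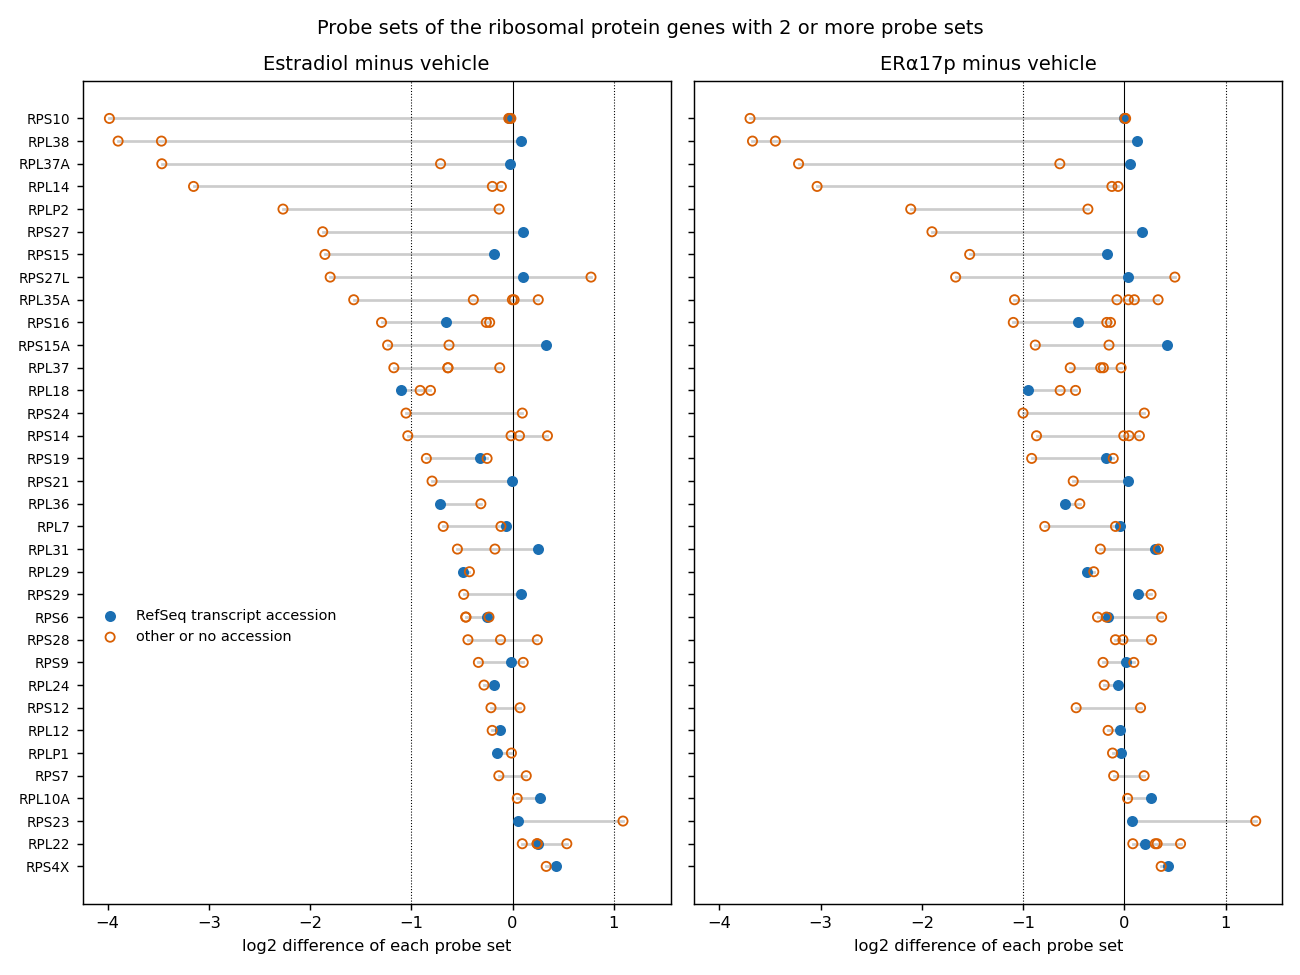
Log2 difference from vehicle (x axis) of every probe set of the 34 ribosomal protein genes with 2 or more, for estradiol (left) and ERα17p (right). Filled points are probe sets with a RefSeq transcript accession, open points have another or none, dotted lines mark 2-fold; the points at -3 and below, in RPS10, RPL38, RPL37A and RPL14, are all open.

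The 64 probe sets left out because they carry several symbols, of which exactly 1 is a ribosomal protein gene, were read apart. Most share their symbol list with small nucleolar RNAs that lie in introns of these genes. Their median difference from vehicle was -0.10 with estradiol and -0.03 with ERα17p, with 12 of 64 at least 1.5-fold lower under each agent, and 2 and 3 higher. Most of those lower belong to a single gene, RPL13, so the 12 do not stand for 12 genes. Every RPL13 probe set was that much lower, from -1.45 to -0.67 with estradiol and from -1.29 to -0.62 with ERα17p. Of all 41097 probe sets with 1 symbol, 11.4% were that much lower and 14.1% higher with estradiol, and 11% and 13.1% with ERα17p. The range with estradiol was -1.87, in a probe set of RPL10A, to 2.11, in a probe set of RPL17.

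The remaining large subunit genes all fell short of 1.5-fold from vehicle, with RPL36 and RPL29 the farthest from it. RPL36 was at 0.44, -0.07 and -0.07 on the 3 arrays, with both differences at -0.51. Its RefSeq transcript probe set alone was past 1.5-fold lower with both agents, at -0.71 and -0.59, and its other probe set was at -0.31 and -0.44. RPL29 was at 0.34, -0.12 and 0.00, with differences of -0.46 and -0.34. RPL3, at the peptidyl transferase centre, was at 0.20, -0.04 and -0.17. RPL8 (-0.25 with estradiol, -0.24 with ERα17p), RPL24 (-0.23, -0.13), RPL32 (-0.22, -0.16), RPL6 (-0.19, -0.07), RPL12 (-0.16, -0.10), RPL19 (-0.13, -0.08), RPL35 (-0.10, -0.06), RPL7 (-0.09, -0.07), RPL9 (-0.08, -0.08), RPL27 (-0.07, -0.08) and RPL41 (-0.06, -0.06) lay below vehicle with both agents by less than 1.2-fold. RPL34 (0.07, 0.18), RPL23A (0.08, 0.15) and RPL10A (0.16, 0.15) lay above it. A further probe set of RPL10A, not used because it also carries a microRNA symbol, was at -1.87 and -1.53. RPL31 differed by -0.02 with estradiol and by 0.30 with ERα17p.

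RPL11, which with RPL5 and the 5S RNA forms the particle that binds MDM2 when ribosome assembly fails, was at -0.01, -0.06 and 0.00. Its differences from vehicle were -0.05 and 0.01. RPS6, the small subunit protein phosphorylated by the S6 kinases, was at 0.16, -0.15 and 0.01, with differences of -0.30 and -0.15. Neither was called.

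The rest of the small subunit lay between -0.53 and 0.12 relative to vehicle with estradiol. RPS15A was at 0.18, -0.35 and 0.03, with differences of -0.53 and -0.15, so its low value was on the estradiol array; its RefSeq transcript probe set alone was at 0.33 with estradiol. RPS24 (-0.48 with estradiol, -0.40 with ERα17p), RPS16 (-0.47, -0.34), RPS21 (-0.40, -0.23), RPS19 (-0.33, -0.18), RPS3 (-0.25, -0.19), which lines the mRNA entry channel, and RPS12 (-0.07, -0.16) were below vehicle with both agents. RPS29 (-0.20, 0.20) and RPS28 (-0.12, 0.04) had opposite signs. RPS25 (-0.03, 0.07), RPS9 (-0.01, -0.01), RPS7 (0.00, 0.04), RPS14 (0.03, 0.02) and RPS18 (0.12, 0.22) lay within 1.2-fold of vehicle.
As a group, the 21 small subunit genes had medians of -0.12 and -0.01, and the 36 large subunit genes of -0.09 and -0.08. Called lower were 2 and 2 of the former (9.52% each), near the 8.25% and 8.53% of all genes. Of the latter 7 and 5 were called lower (19.4% and 13.9%).

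Several ribosomal proteins have a paralogue made by another gene, and in 3 pairs the members lay on opposite sides of vehicle with a called difference in 1 of them. RPL39, which lines the exit tunnel, was at -0.19, 0.06 and 0.09 (differences of 0.25 and 0.28), and RPL39L, its paralogue best known from testis and tumours, at 0.80, 0.04 and -0.10 (differences of -0.77 and -0.90). Both genes rest on 1 probe set each, and neither probe set has a RefSeq transcript accession. RPL22 was at -0.21, 0.03 and 0.10, with all 5 probe sets above vehicle, between 0.10 and 0.54 with estradiol. Its paralogue RPL22L1, which the naming rule does not include, was at 0.96, 0.00 and -0.12, or -0.96 and -1.08 (1 probe set). RPS27 was low and RPS27L, a p53-responsive paralogue, was near vehicle at 0.10 and 0.03, but this opposition holds only for some summaries: the mean of its 3 probe sets puts RPS27L at -0.31 and -0.38, on the side of RPS27, and with RefSeq transcript probe sets only both lie above vehicle.

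The other pairs differed less. RPL3 was at -0.24 and -0.37 from vehicle and its muscle paralogue RPL3L at 0.16 and 0.07. RPL36A (0.01, 0.19) and RPL36AL (0.00, -0.03) both lay near vehicle, as did RPL7 (-0.09, -0.07) beside RPL7L1 (0.14, 0.16). The value of RPL36A rests on 1 probe set. Another that carries its symbol beside a further symbol was not used, and differed by 0.67 and 0.77, past 1.5-fold with both agents. RPL26L1 was at 0.17 and 0.04, with no value for RPL26 here. Reads of near-identical copies cannot be assigned with certainty on this array.

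Of 20 genes mutated in Diamond-Blackfan anaemia, an inherited failure of red cell formation, 14 were members with a value. With estradiol all 14 lay below vehicle, beside 75.4% of all 57 members and 49.0% of all genes. Their differences ran from -0.88 to -0.0001 (median -0.11), and 2, RPS27 and RPL18, were called lower (14.3%, against 8.25% of all genes). The median was -0.27 with the mean of the probe sets, and with RefSeq transcript probe sets only, which 10 of the 14 have, 4 lay above vehicle: RPS15A, RPL31, RPS27 and RPS29. With ERα17p 8 lay below and 6 above, where 63.2% of all members and 49.2% of all genes lay below. The median of -0.04 turned to 0.0054 with RefSeq transcript probe sets only, and 1 was called, RPS27 (7.14%, against 8.53% of all genes).

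Set against each other, without the vehicle array, the treated arrays differed little in these genes. The log2 difference of ERα17p from estradiol was above 0 in 45 of 57 members, with a median of 0.06, while 46.8% of all genes were above 0, with a median of -0.01. The SD over members was 0.14, and 0.253 over all genes. RPL10L, 0.71 higher (1.63-fold), was the 1 member called, where 1.25% of all genes were called higher and 2.06% lower; no member reached 2-fold, as 0.0354% of all genes did upward and 0.212% downward. The next highest were RPS29 (0.40), RPL37 (0.38), RPS15A (0.38) and RPL31 (0.32), and the lowest RPL39L (-0.13), RPL3 (-0.13), RPL3L (-0.10), RPS12 (-0.09) and RPS27L (-0.07).

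RPS29 was at -0.40 with estradiol and 0.00 with ERα17p, RPL37 at -0.30 and 0.08, RPS15A at -0.35 and 0.03, and RPL31 at -0.27 and 0.05. In all 4 the estradiol value was below the reference and the ERα17p value was at or just above it. The 18S ribosomal RNA, the RNA of the small subunit, was 0.53 higher on the ERα17p array in the median of 3 control probe sets, whose median was -0.22 with estradiol and 0.34 with ERα17p. Its part in the members' differences was not tested. RPL27A (0.15) and RPL38 (0.02), far below vehicle on both arrays, were near each other on the treated arrays.

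**Figure D3:**
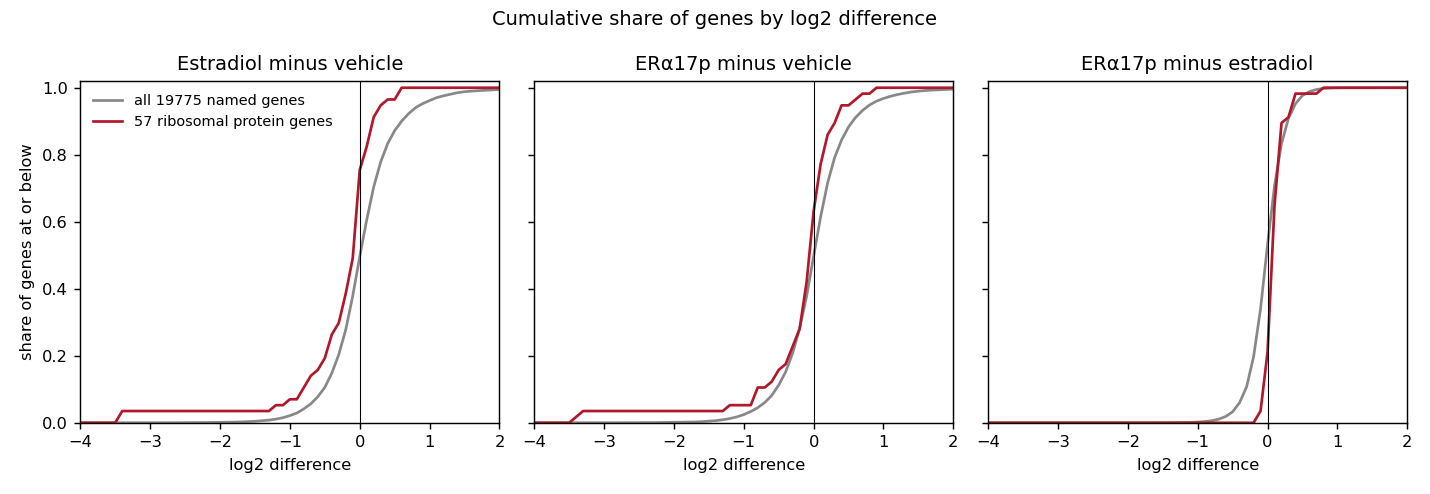
Share of genes (y axis) at or below each log2 difference (x axis, read in steps of 0.1), for all 19775 named genes (grey) and the 57 ribosomal protein genes (red) in the 3 comparisons. Against vehicle the red line lies at or above the grey over most of the axis, with a first step near -3.5 made by RPL27A and RPL38; in the direct comparison it climbs steeply just above 0, with a median of 0.06.

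Other parts of the machinery that makes ribosomes were described in the same way, and their calls are read beside the shares of all genes called lower (8.25% with estradiol, 8.53% with ERα17p) and higher (10.4% and 9.27%). Of 25 measured nucleolar assembly factors, which process ribosomal RNA and join it to the proteins, 21 lay below vehicle with estradiol and 20 with ERα17p, with medians of -0.32 and -0.32, against 0.00 over all genes; 6 (24%) and 3 (12%) were called lower and 0 higher. WDR43, of the small subunit processome, was at -1.13 and -1.06, NOP2, an RNA methyltransferase, at -0.85 and -0.90, MRTO4 at -0.91 and -0.63, and UTP20 at -0.85 and -0.43. Of 15 genes of RNA polymerase I, which transcribes ribosomal RNA, 2 were called higher and 3 lower with estradiol and 2 and 2 with ERα17p (medians of -0.14 and -0.11); POLR1E was at -0.93 and -1.09, the factor UBTF at -0.66 and -0.99, and POLR1F at 0.74 and 0.98.

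Mitochondrial ribosomal proteins, which serve a separate ribosome inside mitochondria, were added as a list after the members' values were seen. Of 75 such genes 12 (16.0%) were called lower with each agent, and 5 (6.67%) and 4 (5.33%) higher, where 8.25% and 8.53% of all genes were lower and 10.4% and 9.27% higher, with a median of -0.16 for both. MRPL52 was at -2.25 and -1.68, MRPL28 at -1.23 and -1.30, MRPL4 at -1.10 and -1.02, and MRPL41 at -1.09 and -0.84. Other TOP mRNAs, of elongation and initiation factors, had 2 of 16 called lower and 0 higher with each agent, with medians of 0.02 and 0.02. These medians turned negative with the mean of the probe sets (-0.05 for both agents), without probe sets marked as matching several transcripts (-0.11, -0.08) and with RefSeq transcript probe sets only (-0.17, -0.04), and for estradiol also against the deposited zero (-0.02). The 2 called were EEF1D (-0.98, -0.63) and EIF3K (-0.95 with estradiol, just past 2-fold lower with ERα17p). EIF4A2 (0.43, 0.46) lay highest with both agents, and BTF3 was at 0.32 and 0.37. FAU, which encodes another small subunit protein as a fusion, was at -0.12 and -0.09.

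Regulators of ribosome synthesis spread both ways. Of 14 MTOR and MYC pathway genes 2 were called lower and 0 higher with each agent, with medians of 0.20 and 0.17; with estradiol these were TSC2 (-0.61) and RPTOR (-0.60), and with ERα17p TSC2 (-0.80) and RPS6KB2 (-0.73). MYC, which drives transcription of ribosome genes, was at 0.46 and 0.37, short of 1.5-fold. Of 7 measured genes of ribosomal stress and p53, SESN2 (-1.10, -1.29) and CDKN1A (-0.80, -0.75) were called lower and 0 were higher, with medians of -0.22 and -0.18, the first of which turned to 0.0144 with RefSeq transcript probe sets only and the second to 0.0128 against the deposited zero; MDM2 lay at -0.11 and -0.10.

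**Figure D4:**
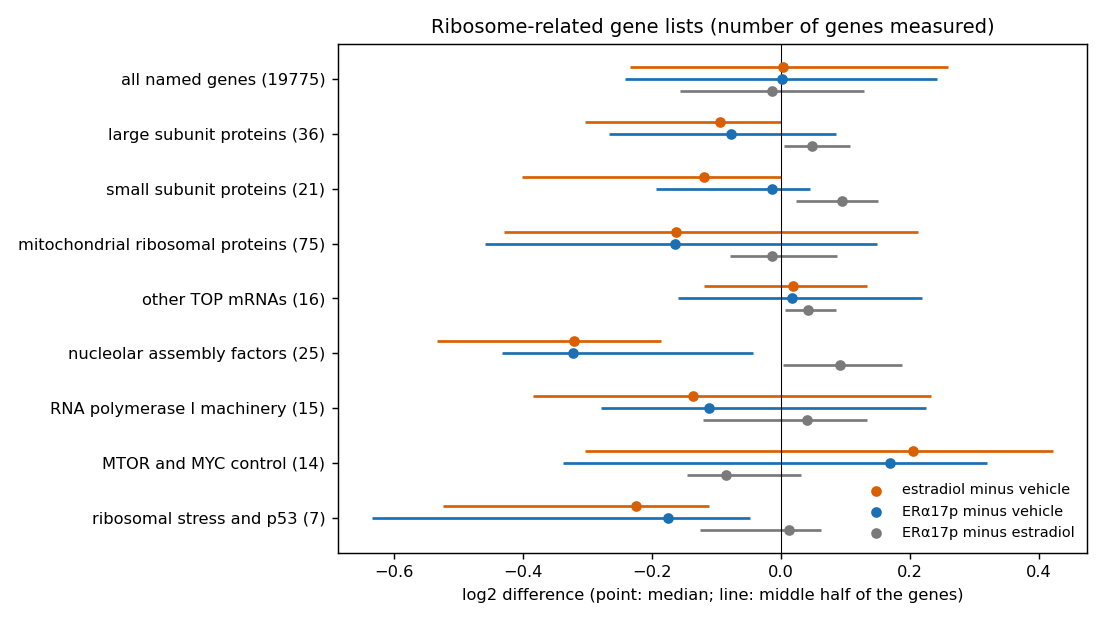
Median log2 difference (points) and the range of the middle 50% of genes (lines) for all named genes, both ribosomal subunits and 6 related lists, with estradiol and ERα17p each against vehicle and against each other; the number of genes is in brackets. Nucleolar assembly factors have the lowest medians against vehicle, -0.32 with each agent, and small and large subunit genes lie within 0.12 of 0.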

How the data were processed

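The authors deposited log2 values. RMA is named in the submitters' processing notes without a version, and base 2, which RMA uses, was taken because no source states a base. The values had been centred per probe set, and each array's median was 0. Symbols came from the platform's annotation: 41097 probe sets had 1 symbol, 1801 several and 11777 none. Of the 19775 genes it named, 19735 were found in RefSeq (GRCh38.p14), and 0 symbols needed an update. A gene's value was the median of its probe sets; no filter on low values was used, since the centring leaves no level. Differences of at least 1.5-fold (0.585 in log2) were called, with 2-fold as a stricter limit. No test was run with 1 array a group, and precision is limited by that number.

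The members and the gene lists were chosen with earlier results of these data known. All members could be named, with values on every array for those farthest from 0 and for stalk, 5S particle and paralogue genes, and up to 4 genes of each related list farthest from vehicle; MYC and MDM2 were added for their role. A planned comparison of paralogue protein sequences was not analysed here. Alternatives are given in the closing section. Python 3.11.15, pandas 2.3.3 and numpy 2.4.6 were used; the script was tested on simulated data.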

Additional observations from a re-analysis of the deposited data

How the results depend on the processing

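The median difference of the ribosomal protein genes stayed below 0 against vehicle in every alternative run that used the vehicle array. It ran from -0.19 to -0.05 with estradiol and from -0.10 to -0.03 with ERα17p. Between the treated arrays it stayed above 0, from 0.05 to 0.08 for ERα17p minus estradiol. Against the deposited zero, which leaves out the vehicle array, the medians were -0.07 and -0.0027, beside 0.00 and -0.0019 over all genes. The counts of calls moved both ways. With the mean of the probe sets 12 members were lower with estradiol and 10 with ERα17p (8.46% and 8.66% of all genes). With the median of the probe set differences the counts were 10 and 8 (8.42% and 8.82%). Including probe sets of several symbols gave 72 members, of which 8 were lower with estradiol and 6 with ERα17p (8.24% and 8.52% of all genes). For ERα17p the members' share was then about that of all genes. With estradiol the 9 members called lower became 5 after quantile normalisation (6.1% of all genes) and 4 at 2-fold (2.14%). They became 2 against the deposited zero in place of the vehicle array (0.516%), and 3 with RefSeq transcript probe sets only. The last run left 39 members, and its 3 are a smaller share than the 10.6% of all genes called lower there. For ERα17p the 7 lower became 3 at 2-fold, 1 against the deposited zero and 2 with RefSeq transcript probe sets only. The shares of all genes were 2.44%, 0.632% and 10.9%, the last again above that of the members. The 2 higher became 0 in each of these, beside 3.21%, 0.496% and 15.1% of all genes called higher. Without probe sets marked as matching several transcripts, which left 34 members, 12 were lower with estradiol and 9 with ERα17p (8.48% and 8.74% of all genes). In that run 1 was higher with estradiol and 2 were higher between the treated arrays (10.2% and 1.85% of all genes). The 1 reported higher between the treated arrays became 0 at 2-fold and 0 with RefSeq transcript probe sets (0.0354% and 2.14% of all genes). With RefSeq transcript probe sets only, 5 of the 9 members called lower with estradiol had a value and 1 of them kept its call, and for ERα17p 0 of 4 did; RPL38 changed sign, to 0.0843 and 0.13, as did RPS27, to 0.11 and 0.18, and for ERα17p RPL37A, to 0.055. Against the deposited zero RPL39L changed sign with estradiol, to 0.035. The cause of these shifts was not tested. The restriction to RefSeq transcripts, the inclusion of probe sets with several symbols and the median of probe set differences were chosen after seeing the data. No paired analysis was possible because each group has 1 array, and no array could be left out. Signal over background is unknown, since the deposited values hold no level.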
